A study of Homo sapiens with 6 samples.

Results

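The genes described here are 49 splicing regulators, 14 SR and TRA2 proteins, 25 heterogeneous nuclear ribonucleoproteins (hnRNPs) and 10 other RNA-binding regulators, of 25349 genes in the count table. They were chosen by gene symbol, with earlier results of these data known. With the siRNA against exon 7 of MKI67, 11 members fell and 2 rose among the 48 that could be tested, where 16.0% of all tested genes fell and 18.0% rose. HNRNPUL1 and SRSF9 fell to 0.371 and 0.440 times the control level, and HNRNPH2 rose by 1.52-fold.

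SR proteins carry an RNA-recognition motif and a domain rich in arginine and serine. They bind exonic enhancers, recruit U1 and U2 snRNP, and mostly favour inclusion of the exon they bind. The hnRNPs coat nascent transcripts and often, though not always, act against them, so that the balance of both families sets which exons are kept. Many of their own genes hold a poison exon or another path into nonsense-mediated decay (NMD), the route that degrades mRNAs with a premature stop codon, through which these proteins are known to limit their own mRNA.

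SCC-9 is an established human cell line that was derived from a tongue carcinoma of squamous type. Its cells were given an siRNA at 10 nM on day 0 and again on day 2, either one that targets exon 7 of MKI67 (which encodes the proliferation marker Ki67) or a nonspecific one. The groups are called siE7 and siNC, with 3 libraries each, and both were transfected with the same lipid reagent. The labels do not say whether the libraries came from separate cultures, so the p-values measure the spread between these libraries, which may be technical.

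Total counts per library ran from 25608192 to 29550264. MKI67, the siRNA target, stood at 1029 to 1077 CPM (counts relative to the library's total, scaled by TMM) with siNC and at 108 to 124 with siE7. The 6 squamous markers (KRT5, KRT14, KRT6A, KRT17, TP63 and SFN) summed to 21207 to 27687 CPM in every library, the 5 fibroblast markers to 16.4 to 24.0, the 4 endothelial markers to at most 0.492 and the 5 leukocyte markers, of which 4 held no count, to at most 0.122. One siE7 library, replicate 1, stood apart from the others. Relative to the mean of the siE7 libraries, its gene levels rose with GC content by 0.29 (log2 units per 10 percentage points of GC). Those of replicates 2 and 3 fell by 0.14 and 0.15 on this scale. Deviations from a group mean offset one another, so these falls are not independent of the rise in replicate 1. They cannot show how any siE7 library stands against siNC. Because replicate 1 stood apart, the members' fold changes are given with and without it.

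The members whose change was beyond 1 on the log2 scale lie in the genome as follows (GRCh38, GENCODE v44). SRSF9 (ENSG00000111786.9) lies on chromosome 12, 120461672 to 120495946, on the minus strand, and HNRNPUL1 (ENSG00000105323.17) on chromosome 19, 41262496 to 41307787, on the plus strand. HNRNPH2 (ENSG00000126945.9), the member that rose most, lies on chromosome X, 101408222 to 101414133, on the plus strand. Their RefSeq promoters (GRCh38.p14, 250 bases before to 50 after a start site) are shown because they belong to the members at both ends of the range, at chr12:120469699-120469998 (minus strand), chr19:41262307-41262606 (plus strand) and chrX:101407972-101408271 (plus strand). Capitals mark each match, on either strand, to 1 of 6 short motifs, which do not overlap one another in these windows. The E-box was searched as CACGTG and the box bound by NF-Y as CCAAT. The GC box of SP factors was searched as GGGCGG and the core of ETS sites as CCGGAA. The core of cyclic AMP response elements (CRE) was searched as TGACG and the TATA box as TATAAA.
SRSF9: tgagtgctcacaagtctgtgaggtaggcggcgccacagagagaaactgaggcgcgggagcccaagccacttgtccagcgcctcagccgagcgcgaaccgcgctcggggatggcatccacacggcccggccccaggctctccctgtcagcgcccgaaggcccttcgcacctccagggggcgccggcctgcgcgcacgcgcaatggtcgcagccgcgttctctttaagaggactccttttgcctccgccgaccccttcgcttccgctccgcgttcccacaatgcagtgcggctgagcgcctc
HNRNPUL1: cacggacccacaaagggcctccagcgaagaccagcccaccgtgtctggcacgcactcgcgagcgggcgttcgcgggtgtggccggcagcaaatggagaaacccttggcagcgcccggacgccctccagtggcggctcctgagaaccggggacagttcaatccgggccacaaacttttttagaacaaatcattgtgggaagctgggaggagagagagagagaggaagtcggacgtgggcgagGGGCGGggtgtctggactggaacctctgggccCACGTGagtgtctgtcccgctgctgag
HNRNPH2: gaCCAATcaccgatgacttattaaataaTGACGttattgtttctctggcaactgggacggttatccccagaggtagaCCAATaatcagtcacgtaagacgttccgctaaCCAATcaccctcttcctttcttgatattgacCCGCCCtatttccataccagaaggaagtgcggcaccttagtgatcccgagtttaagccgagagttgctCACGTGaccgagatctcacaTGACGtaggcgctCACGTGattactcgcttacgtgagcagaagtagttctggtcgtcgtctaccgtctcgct

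The SRSF9 window held none of the 6 motifs, the HNRNPUL1 window 1 E-box and 1 GC box, and the HNRNPH2 window 3 CCAAT boxes, 2 E-boxes, 2 CRE cores and 1 GC box. RefSeq promoters were matched for 42 of the 49 members, with 64 start sites in all. Of these 64 windows, 11 (17.2%) held an E-box, against 9.18% of 15287 windows of all tested genes. The CCAAT box was in 40.6% against 34.7%, the GC box in 60.9% against 65.8%, the ETS core in 23.4% against 26.8%, the CRE core in 37.5% against 31.8% and the TATA box in 9.38% against 6.19%. Of the 14 windows of members that fell, 2 held an E-box, 6 a CCAAT box, 10 a GC box, 5 an ETS core, 4 a CRE core and 3 a TATA box. SRSF2 and ELAVL1 also fell but had no matched promoter, so these windows leave them out.

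Levels between genes are compared as CPM per kilobase of exon (RPKM), where the exons are the union of all annotated transcripts. The order of genes depends on this length, which was 2.118 kb for HNRNPAB and 12.613 kb for HNRNPA2B1. In CPM the siNC mean was 942 for HNRNPAB and 2241 for HNRNPA2B1. The hnRNPs were by far the largest pool: in siNC they summed to 2702 ± 28.1 RPKM (SD, n = 3), against 449 ± 0.711 for the SR and TRA2 genes and 436 ± 22.6 for the other regulators. By RPKM HNRNPAB was the highest member, at 445 ± 20.8, followed by HNRNPA1 at 298 ± 17.9 and HNRNPM at 237 ± 3.53. These levels did not overlap between libraries. HNRNPF, HNRNPD, HNRNPK, HNRNPA2B1 and PCBP1 came next at 173 to 201 RPKM, with neighbours that differed by less than the sum of their SDs. Among the SR genes SRSF4 led with 94.8 ± 4.56 RPKM, ahead of SRSF9 at 81.3 ± 3.45, SRSF5 at 72.1 ± 0.864 and SRSF6 at 58.5 ± 1.69.

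Some members were nearly silent. PTBP2, the paralogue of PTBP1 that neurons use, had 13 to 38 counts per library, and SRSF12 had 4, 4 and 3 counts with siNC and 3, 17 and 12 with siE7, too few to be tested with all libraries. In siE7 the summed level of the 49 members was 3103 ± 62.2 RPKM against 3587 ± 36.2 in siNC, a difference of -13.5%, and -12.8% without siE7 replicate 1. It was -2.79% when libraries were scaled by their totals alone instead of by TMM, the scaling that assumes most genes unchanged, since the log2 fold changes of all genes then stand higher by a median of 0.17. Fewer cells of a kind and less RNA per cell cannot be told apart in such bulk libraries.

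Differences between siE7 and siNC were tested by edgeR's quasi-likelihood F-test across all 14661 genes that passed its filter on low counts, and a gene was called at a Benjamini-Hochberg adjusted p under 0.05. Of the 48 members tested, 11 (22.9%) were called lower and 2 (4.17%) higher, against a background of 16.0% of all tested genes called lower and 18.0% called higher. The median log2 fold change was -0.15 over the members and 0.08 over all genes. Without siE7 replicate 1, 24 of 49 members were called lower and 11 (22.4%) higher, where the background was 29.5% and 28.9%. After removal of each library's GC trend, 23 of 48 (47.9%) were lower and 4 (8.33%) higher, against 25.4% and 23.9% of all genes. Under library totals the count was 6 lower (12.5%) and 4 higher (8.33%), against 11.1% and 27.5%. In these 4 fits the share of members called lower stood above the background, by little with library totals, and the share called higher stood below it. The excess of falls was absent in some other fits. With the replicate number as a block, 14.6% of members were lower, against 16.1% of all tested genes. Without siNC replicate 1 or 3 the share lower was slightly below the background, and without siE7 replicate 2 it was about level. In the remaining fits it was above the background.

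The 3 siE7 libraries were all below the 3 siNC libraries for 20 of the 48 members and all above for 3, where 22.7% and 24.9% of all tested genes behaved so. With an adjusted p under 0.05 and a log2 fold change beyond 1 as the definition of a DEG, HNRNPUL1 and SRSF9 were DEGs, both lower, and 4.84% of all tested genes were lower DEGs. Among all genes 1082 of 14661 were higher DEGs. Without siE7 replicate 1 there were 1289 of 15011, and SRSF12, with 3 to 17 counts per library, was one of them. The 13 called members kept their direction in all 15 alternative fits, and SRSF2, SRSF6, SRSF9, HNRNPUL1 and ELAVL1 were called in all of them. With 3 libraries against 3, an exact permutation test of a single gene cannot go below p = 0.10, so no single-gene permutation p is given.

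**Figure D1:**
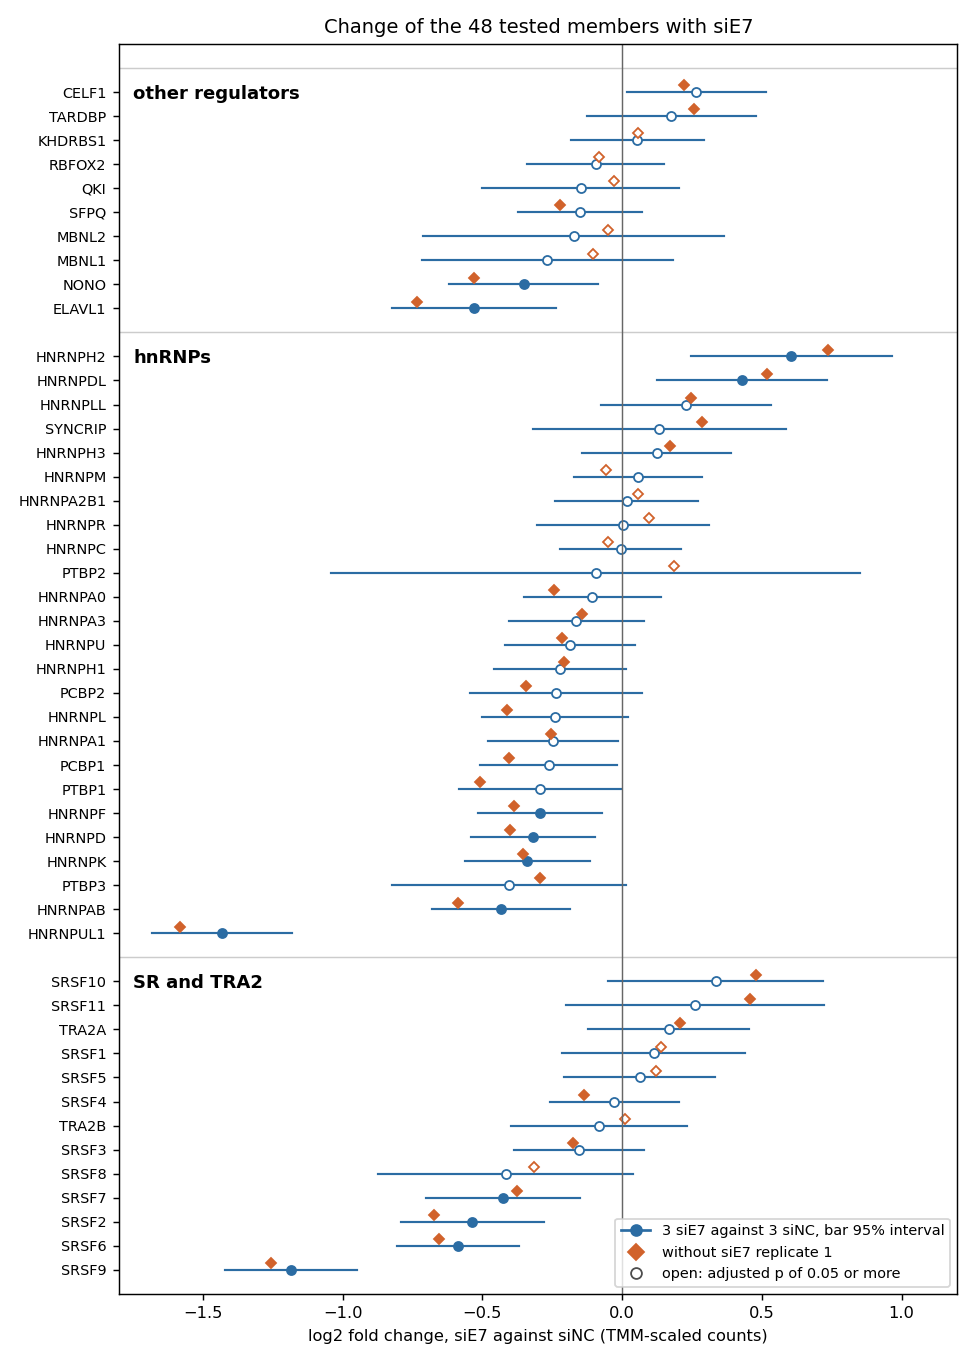
Log2 fold change of the 48 tested members, siE7 against siNC, by family. Circles with 95% intervals use all 6 libraries, diamonds leave out siE7 replicate 1, and filled symbols have an adjusted p under 0.05: 13 circles are filled, with HNRNPUL1 at -1.43 and SRSF9 at -1.19 farthest from 0.

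Among the 13 SR and TRA2 genes tested, 4 (30.8%) fell and 0 rose by edgeR, against 16.0% and 18.0% of all tested genes. With all libraries the number that rose was also 0 at an unadjusted p under 0.05 and 0 by DESeq2. Without siE7 replicate 1, 6 of 14 (42.9%) fell and 4 (28.6%) rose, against 29.5% and 28.9% of all tested genes. SRSF9, one of the smallest SR proteins, stood at 313, 338 and 315 CPM in the siNC libraries and at 143, 131 and 150.2 CPM in the siE7 libraries. The groups were well apart, and siE7 replicate 1 lay between the other siE7 libraries. Its log2 fold change was -1.19 ± 0.11 (SE, adjusted p = 1.7e-05 by edgeR), and -1.26 without siE7 replicate 1 (adjusted p = 4.3e-19).

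SRSF6, a regulator of alternative exons, had 296, 281 and 281 CPM with siNC and 192, 187 and 192 CPM with siE7. All siE7 libraries, replicate 1 included, were alike and lower. The log2 fold change was -0.59 ± 0.10 (adjusted p = 0.0011), and -0.66 without replicate 1. SRSF2, a classic marker of nuclear speckles, had 61.9, 59.4 and 63.0 CPM with siNC and 46.5, 41.9 and 38.6 CPM with siE7. Here siE7 replicate 1 was the nearest to the control, and the log2 fold change was -0.54 ± 0.12 (adjusted p = 0.0047), or -0.67 without it.

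SRSF7, which like SRSF3 also links splicing to mRNA export, had 106, 113 and 110.0 CPM with siNC and 68.6, 84.1 and 92.2 CPM with siE7. The groups did not overlap, and siE7 replicate 1 was the lowest library. Its log2 fold change was -0.43 ± 0.13 (adjusted p = 0.023) and -0.38 without replicate 1. This call rested on all 3 control libraries, since leaving out any of them gave an adjusted p of 0.066, 0.090 or 0.083.

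SRSF3 and SRSF1 are followed further by the study, which asks how exon 7 of MKI67 is spliced. SRSF3, the smallest SR protein, had 296, 266 and 271 CPM with siNC and 236, 267 and 247 CPM with siE7. The groups overlapped by a narrow margin. Its log2 fold change was -0.15 (95% interval -0.39 to 0.08, adjusted p = 0.29), and -0.18 without siE7 replicate 1, which then passed the threshold (adjusted p = 0.0093). Under library totals it stood at 0.016.

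SRSF1, the founding member of the family, had 19.4, 17.5 and 16.4 CPM with siNC and 16.9, 21.9 and 18.9 CPM with siE7. The groups overlapped, and the log2 fold change was 0.11 (95% interval -0.21 to 0.44, adjusted p = 0.59). Its row is a poor measure of the gene. A second gene model on the same strand, RP11-159D12.5, shares 32.7% of the exon bases of SRSF1 and held 4867 to 7527 counts per library, where SRSF1 held 433 to 604. The sum of both rows was 219 ± 7.21 CPM with siNC and 247 ± 35.1 CPM with siE7, and the log2 fold change of RP11-159D12.5 was 0.18 (adjusted p = 0.28), or 0.24 without siE7 replicate 1 (adjusted p = 0.00032).

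The remaining SR and TRA2 genes did not pass the test with all libraries. SRSF8, a retrogene product, was at -0.42 and SRSF4 at -0.03, SRSF5 at 0.06 and the enhancer-binding TRA2A and TRA2B at 0.17 and -0.08. SRSF10, a splicing repressor when dephosphorylated, and SRSF11 were at 0.34 and 0.26. For SRSF11 the siNC libraries had 175, 169 and 166 CPM, siE7 replicate 1 had 123 and the other siE7 libraries 246 and 241. Without siE7 replicate 1, SRSF10 rose by 0.48 (adjusted p = 6.5e-09), SRSF11 by 0.46 (adjusted p = 2.8e-09) and TRA2A by 0.21 (adjusted p = 0.020), while SRSF4 fell by 0.14 (adjusted p = 0.041). SRSF5, SRSF8 and TRA2B were then at 0.12, -0.32 and 0.0094 and again not called. SRSF12 could then be tested too, at 1.70 (adjusted p = 0.032), from 3 to 17 counts per library. With all libraries and the GC trend removed, SRSF10 was at 0.26 and called (adjusted p = 0.0068). In that fit SRSF11, TRA2A, SRSF4 and SRSF5 were at 0.15, 0.04, -0.12 and -0.03 and not called. SRSF8 and TRA2B, at -0.52 and -0.20, were called lower there.

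Within a library, SRSF10 had 0.41 ± 0.018 counts per count of SRSF6 in siNC and 0.537, 0.925 and 0.884 in siE7. This pair, and those of the hnRNPs given further on, were chosen after their values had been seen. As shares of the summed RPKM of the family, SRSF9 went from 18.1% in siNC to 9.53% in siE7, SRSF6 from 13.0% to 10.4%, SRSF4 from 21.1% to 24.8% and SRSF5 from 16.1% to 20.1%.

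Of the 25 hnRNPs, 5 fell and 2 rose (20% and 8%, against 16.0% and 18.0% of all tested genes), and without siE7 replicate 1 15 fell and 5 rose (60% and 20%, against 29.5% and 28.9%). HNRNPUL1, a relative of HNRNPU that also takes part in the response to DNA breaks, showed the largest change of the 48 tested members. It had 610.2, 595 and 625 CPM with siNC and 253, 223 and 202 CPM with siE7. The groups lay far apart, with siE7 replicate 1 the highest of its group. Its log2 fold change was -1.43 ± 0.11 (adjusted p = 8.3e-06), and -1.58 without replicate 1. HNRNPUL2, its closest relative and not a member, also fell, by 0.66 (adjusted p = 0.0011), or by 0.74 without replicate 1. Within a library HNRNPUL1 had 12.4 ± 0.440 counts per count of HNRNPUL2 in siNC and 7.27 ± 0.595 in siE7.

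The A/B and D group binds AU-rich and UAG-containing RNA. HNRNPAB, the highest member by RPKM, had 991, 904 and 932 CPM with siNC and 785, 659 and 648 CPM with siE7. The groups were apart, and siE7 replicate 1 was the nearest to the control. The log2 fold change was -0.43 ± 0.11 (adjusted p = 0.012), and -0.59 without that library. HNRNPD, also known as AUF1 for its part in the decay of AU-rich mRNAs, had 1259.6, 1406 and 1315 CPM with siNC and 1098, 1068 and 1027 CPM with siE7. Its 3 siE7 libraries were lower than every control, and the log2 fold change was -0.32 ± 0.10 (adjusted p = 0.031), or -0.40 without replicate 1.

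HNRNPDL, a paralogue of HNRNPD next to it on chromosome 4, moved the other way. It had 168, 166 and 164 CPM with siNC and 175, 247 and 248 CPM with siE7. In siE7 replicate 1 it was barely above the controls. The log2 fold change was 0.43 ± 0.14 (adjusted p = 0.034), and 0.52 without replicate 1 (adjusted p = 1.2e-10). Leaving out any other library gave an adjusted p of 0.11 to 0.12. The counts of HNRNPDL per count of HNRNPD were 0.125 ± 0.0076 in siNC and 0.159, 0.232 and 0.242 in siE7.

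HNRNPA1, the archetype of the splicing-silencer hnRNPs and one of the factors the study follows, had 1874, 2113 and 2004 CPM with siNC and 1549.6, 1722 and 1776 CPM with siE7. The siE7 libraries were all lower, yet the log2 fold change of -0.25 (95% interval -0.48 to -0.01) had an adjusted p of 0.094. Without siE7 replicate 1 it was -0.25 with an adjusted p of 0.00037. Rows of 22 processed copies of HNRNPA1 held 7.25 to 9.17% of the counts on the gene and its copies together, so that some reads of the gene may be counted elsewhere. HNRNPA0, HNRNPA3 and HNRNPA2B1 were at -0.11, -0.16 and 0.02, none of them called, and without siE7 replicate 1 HNRNPA0 and HNRNPA3 fell by 0.25 and 0.14 while HNRNPA2B1 was at 0.058.

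HNRNPC, which binds uridine tracts and is likewise followed by the study, was level. It had 888, 946 and 925 CPM with siNC and 895, 909 and 945 CPM with siE7. The groups overlapped almost fully, and the log2 fold change was -0.01 with a 95% interval of -0.22 to 0.21 (adjusted p = 0.97), and -0.05 without siE7 replicate 1. It stood at 0.16 under library totals, close to the median shift of all genes.

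The F/H group binds runs of G. HNRNPH2, encoded on chromosome X by a gene without annotated alternative transcripts, rose. It had 79.9, 79.2 and 83.3 CPM with siNC and 88.1, 139 and 141 CPM with siE7. All siE7 libraries were higher, replicate 1 by little. The log2 fold change was 0.61 ± 0.16 (adjusted p = 0.015), and 0.74 without replicate 1 (adjusted p = 5.7e-14). Leaving out siE7 replicate 2 or any of the controls gave an adjusted p of 0.056 to 0.068. The readthrough gene RPL36A-HNRNPH2, which overlaps 15.8% of the exon bases of HNRNPH2, rose too, by 0.62 (adjusted p = 0.010). HNRNPF fell by 0.29 (adjusted p = 0.042), and by 0.39 without siE7 replicate 1. HNRNPH1 and HNRNPH3 were at -0.22 and 0.12 and not called with all libraries. Without siE7 replicate 1 HNRNPH1 fell by 0.21 (adjusted p = 0.0012) and HNRNPH3 rose by 0.17 (adjusted p = 0.0074). The counts of HNRNPH2 per count of HNRNPH1 were 0.163 ± 0.0043 in siNC and 0.231, 0.306 and 0.321 in siE7.

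The poly(C)-binding group held HNRNPK, PCBP1 and PCBP2, whose siE7 libraries were all below the controls. HNRNPK had 1027, 1093 and 1021 CPM with siNC and 775, 837 and 871 CPM with siE7. The groups did not overlap, and the log2 fold change was -0.34 ± 0.10 (adjusted p = 0.025), or -0.36 without siE7 replicate 1. PCBP1 and PCBP2 were at -0.26 (adjusted p = 0.091) and -0.24 (adjusted p = 0.22), and both fell without replicate 1, by 0.41 and 0.35. PCBP2 shares 13.8% of its exon bases with RP11-793H13.8, whose row held 3813 to 5139 counts against 425 to 561 on PCBP2 itself, so its level is uncertain too.

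PTBP1, PTBP3 and HNRNPL, repressors that bind pyrimidine tracts or CA repeats, were at -0.29, -0.40 and -0.24 and were not called. They fell by 0.51, 0.29 and 0.41 without siE7 replicate 1. HNRNPLL was at 0.23 with all libraries and not called (adjusted p = 0.23), and rose by 0.25 without siE7 replicate 1 (adjusted p = 0.013). PTBP2 was at -0.10, with a 95% interval of -1.04 to 0.85 that its few counts leave wide, and at 0.18 without siE7 replicate 1. HNRNPM, HNRNPR, SYNCRIP and HNRNPU were at 0.06, 0.002, 0.13 and -0.19 and were not called. HNRNPU, a nuclear scaffold protein, fell by 0.22 without siE7 replicate 1, and SYNCRIP rose by 0.29, while HNRNPM and HNRNPR were at -0.058 and 0.097 and not called. The row of SYNCRIP, with 278 to 476 counts, is small beside RP11-321N4.5, which shares 27.1% of its exon bases and held 7158 to 10366 counts.

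**Figure D2:**
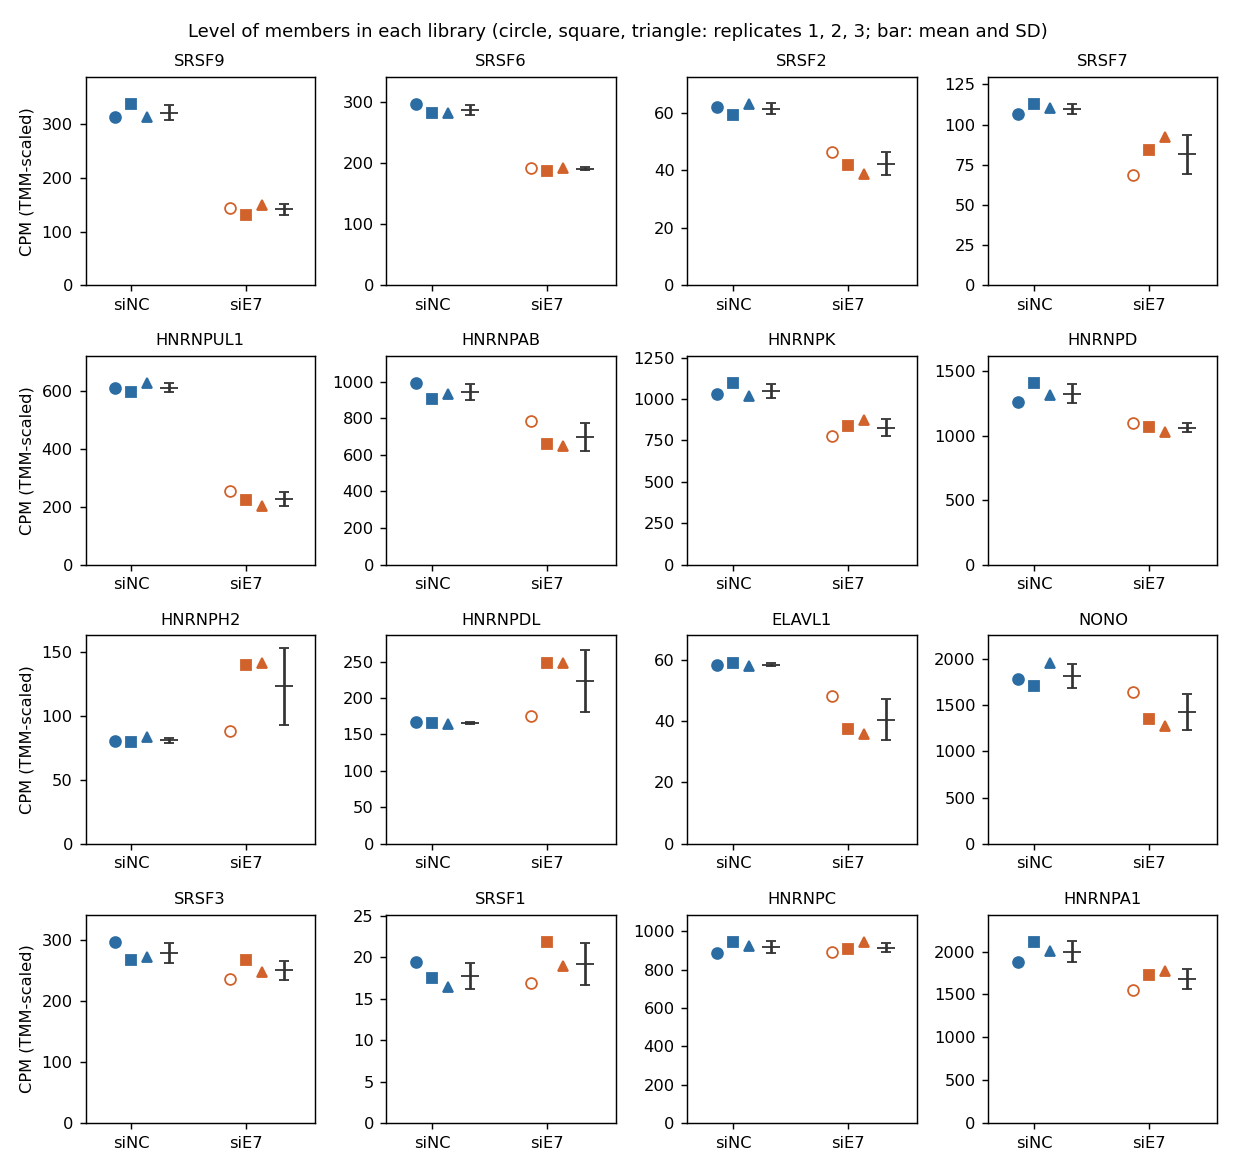
CPM of 16 members in each library, on axes that start at 0. Circles, squares and triangles are replicates 1, 2 and 3, the open circle is siE7 replicate 1, and bars give the mean and SD of 3 libraries. SRSF9 and HNRNPUL1 were far lower in all siE7 libraries, whereas for HNRNPH2 and HNRNPDL siE7 replicate 1 lay close to siNC, and HNRNPC and SRSF1 overlapped.

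Among the 10 other regulators, 2 (20%) fell and 0 rose by edgeR, against 16.0% and 18.0% of all tested genes, so the share that fell was near the background. At an unadjusted p under 0.05 CELF1 alone was higher, and DESeq2 called 0 higher. Without siE7 replicate 1, 3 (30%) fell and 2 (20%) rose, against 29.5% and 28.9% of all tested genes. ELAVL1, or HuR, which binds and stabilises AU-rich mRNAs, had 58.2, 59.0 and 57.9 CPM with siNC and 48.1, 37.4 and 35.8 CPM with siE7. All siE7 libraries were lower, replicate 1 the least. The log2 fold change was -0.53 ± 0.13 (adjusted p = 0.010), and -0.73 without replicate 1. NONO, a paraspeckle protein, had 1789, 1709.9 and 1962 CPM with siNC and 1647, 1356 and 1275 CPM with siE7. Here siE7 replicate 1 was close to the lowest control. Its log2 fold change was -0.35 ± 0.12 (adjusted p = 0.044), or -0.53 without that library, and leaving out any of the other 5 gave an adjusted p of 0.085 to 0.18.

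SFPQ, the partner of NONO in paraspeckles, was at -0.15, and fell by 0.22 without siE7 replicate 1 (adjusted p = 0.0012). CELF1, which binds GU-rich RNA, was at 0.27 with all siE7 libraries above the controls (adjusted p = 0.091), and rose by 0.22 without replicate 1. TARDBP, the UG-binding protein TDP-43, was at 0.18 and rose by 0.26 without replicate 1. The levels of RBFOX2, MBNL1, MBNL2, KHDRBS1 and QKI, with log2 fold changes from -0.27 to 0.05, passed the test neither with nor without that library, where they ran from -0.11 to 0.058.

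The members are poor in GC beside other genes. The median GC content of their exons was 41.4%, against 48.2% for 12659 tested protein-coding genes, and 11 members that fell had a median of 45.5%. Transcripts marked for NMD were annotated for 38 of the 49 members (77.6%) and for all 14 SR and TRA2 genes, against 47.9% of the protein-coding genes. The counts per gene do not separate those transcripts from the coding ones.

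Across the 48 tested members, the log2 level of siE7 replicate 1 relative to the other siE7 libraries rose with exon GC content, with Pearson's r of 0.70 and Spearman's rho of 0.71 (0.65 and 0.72 across 14645 tested genes). These correlations are across genes that share the same libraries and are not independent. In 9 members siE7 replicate 1 lay below every control while replicates 2 and 3 lay above, namely SRSF5, SRSF10, SRSF11, HNRNPA2B1, HNRNPH3, HNRNPR, SYNCRIP, TARDBP and KHDRBS1. In HNRNPA0 it was the reverse. Of 14645 genes tested, 1245 had the first pattern and 722 the reverse. None of these 10 was called with all libraries, and the part of GC content in these differences was not tested.

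Other genes of the pathway were counted in lists by their roles, which overlap with the members only for the factors of the siRNA screen. Over the 122 genes tested in the lists without the members, 26 fell and 16 rose, where 16.0% and 18.0% of all tested genes did, and without siE7 replicate 1 51 fell and 38 rose, where 29.5% and 28.9% did. Those named next as having fallen or risen kept their direction and their call without that library. Of 12 tested SR protein kinases and transport factors, 1 fell and 3 rose. TNPO3, which carries SR proteins into the nucleus, fell by 0.71 (adjusted p = 0.0019), from 73.2 to 77.7 CPM to 37.9 to 50.4 CPM. SRPK2, a kinase of their arginine-serine domain, rose by 0.60 (adjusted p = 0.013), from 43.1 to 49.7 CPM to 52.5 to 81.5 CPM.

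Of 26 SR-related proteins 3 fell and 2 rose. SRRM1, a coactivator that bridges SR proteins and snRNPs, fell by 0.62 (adjusted p = 0.0012), and LUC7L, a U1-associated protein, rose by 0.59 (adjusted p = 0.0037). Among 18 genes of U1 and U2 snRNP and of 3′ splice site recognition 5 fell and 2 rose. SF3B3, a subunit of the SF3b complex of U2 snRNP, was a DEG and fell by 1.05 (adjusted p = 0.0003), from 154 to 166 CPM to 63.6 to 94.3 CPM. Under library totals it fell by 0.89.

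The 8 Sm genes, whose proteins form the ring of the snRNPs, had 1 that fell and 1 that rose. SNRPN, one of them, rose by 0.65 (adjusted p = 0.006) from 8.93 to 10.4 CPM to 14.6 to 15.6 CPM, and SNRPD2 fell by 0.35 (adjusted p = 0.048). In the tri-snRNP and PRP19 complex, 5 of 20 genes fell and 4 rose, and TXNL4A and EFTUD2, both of the U5 snRNP, fell by 0.61 and 0.64 (adjusted p = 0.0013 and 0.0016). For the exon junction complex and NMD, 2 of 15 fell and 4 rose. CASC3, a core junction protein, rose by 0.45 (adjusted p = 0.0099), and by 0.30 without siE7 replicate 1.

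Of 23 tested splicing regulators outside the members 9 fell and 0 rose by edgeR, against 16.0% and 18.0% of all tested genes (1, RBM47, was higher at an unadjusted p under 0.05, and DESeq2 called 0 higher). Without siE7 replicate 1, 11 fell (47.8%) and 2 rose (8.70%), against 29.5% and 28.9%. The number higher was 3 (13.0%) with library totals, against 27.5%, and 1 (4.35%) with the GC trend removed, against 23.9%. Among these regulators YBX3, a cold-shock protein, was a DEG that fell by 1.22 (adjusted p = 1.1e-05), from 278 to 284 CPM to 117 to 127 CPM. The median log2 fold change of the 7 lists other than the screen ran from -0.07 to 0.21. The 17 factors of the siRNA screen, which the study screened for an effect on exon 7, had a median of -0.25. All but YBX1 are members. By edgeR 6 (35.3%) were lower and 0 higher, against 16.0% and 18.0% of all tested genes. The number higher was also 0 at an unadjusted p under 0.05 and 0 by DESeq2. The 6 lower factors were SRSF2, SRSF9, HNRNPD, HNRNPF, HNRNPK and YBX1, which fell by 0.59. Without siE7 replicate 1, 12 of the 17 (70.6%) were lower and 1 (5.88%), SYNCRIP, higher, against 29.5% and 28.9% of all tested genes. Only 3 were lower with library totals, and likewise without siNC replicate 1, 2 or 3 or without siE7 replicate 2.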

How the data were processed

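Poly(A) RNA of SCC-9 cells was sequenced from 3 siE7 and 3 siNC libraries, made with a kit that keeps the strand. The deposited file holds counts of reads per gene, which the authors made and did not normalize, and all values here start from these counts. The submitters' processing notes name HISAT2, DESeq2 and the GRCh38 genome. The counting tool, the annotation release and the use of strand in counting are not given in the sources used here, so reads of overlapping genes cannot be told apart.

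Genes were tested by edgeR 4.0.16 (R 4.3.3), with filterByExpr, TMM scaling, a robust quasi-likelihood F-test and Benjamini-Hochberg adjustment over 14661 genes. A gene was called at an adjusted p under 0.05 and was a DEG with a log2 fold change beyond 1 as well. CPM were scaled by TMM, and RPKM divides them by exon length. Total counts ran from 25608192 to 29550264, and intervals of 95% come from the edgeR fit. Of the 25349 gene identifiers, 25283 were matched to GENCODE 44 without the version, 49 of 49 members among them. Alternatives were DESeq2 1.42.0, RLE and upper-quartile factors, library totals, no filter on low counts or a minimum of 10 in all libraries, the replicate number as a block, removal of the GC trend (lowess, span 0.3) alone or together with the block, and omission of each library in turn. The test was checked on simulated data. Replicates differed by more than sampling noise. The promoter sequences come from RefSeq.

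The members, the gene lists and the alternatives were chosen with earlier results of these data known. All members are accounted for. Values in every library are given for SRSF3, HNRNPC, HNRNPA1 and SRSF1, for DEGs, and for the called members with the largest changes, up to 4 per direction among the SR and TRA2 genes and the hnRNPs and 3 among the others. From each other list the DEGs are named, or else the 2 called genes with the smallest p. One gene that this rule names is not reported here. HNRNPUL2, the gene models that overlap members, SRSF11, YBX1, RBM47, ESRP1 and ESRP2 were named after their values had been seen. Cell, protein and mouse experiments are not analysed here.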

Additional observations from a re-analysis of the deposited data

How the results depend on the processing

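The 13 called members kept their direction in all 15 alternatives, and 5 of them (SRSF2, SRSF6, SRSF9, HNRNPUL1 and ELAVL1) stayed past the threshold in each. Of the others, HNRNPF passed it in 6 of the 16 fits, NONO in 7, HNRNPD in 8 and HNRNPK and HNRNPDL in 10. The count of members called was not stable. From 11 lower and 2 higher it went to 6 and 4 with library totals, to 23 and 4 with the GC trend removed, and to 1 higher with RLE factors. Of all tested genes, 11.1% were lower and 27.5% higher with library totals, and 25.4% and 23.9% with the GC trend removed. RLE factors had 15.8% of all tested genes higher. The causes were not tested. With library totals 2 hnRNPs were lower, and 1 other regulator was lower and 1 higher. With the GC trend removed 1 SR or TRA2 gene was higher, 11 hnRNPs were lower, and 6 other regulators were lower and 1 higher. RLE factors left 1 hnRNP higher, and upper-quartile factors and a minimum of 10 counts each left 1 other regulator lower.

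No pairing by replicate number was seen: the correlations of same-numbered libraries were -0.039, -0.021 and -0.052, and none was over 0.1. They use deviations from group means, where siE7 replicate 1 weighs heavily, so they cannot show that the samples were unpaired. With the replicate block 7 members (14.6%) were lower, against 16.1% of all tested genes. Of these members 2 were hnRNPs and 1 an other regulator, and 3 of the 17 screen factors were lower. With the GC trend removed and the replicate block, 25 members (52.1%) were lower and 4 (8.33%) higher. Of all tested genes, 25.4% and 23.6% were. By family, 7 SR or TRA2 genes were lower and 1 higher, 12 hnRNPs were lower, and 6 other regulators were lower and 1 higher.

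Leaving out each library in turn gave 5 to 24 members lower and 0 to 11 higher. The background moved as well: 10.3% to 29.5% of all tested genes were lower in these fits, and 10.6% to 28.9% higher. The SR and TRA2 genes had 3 to 6 lower and 0 to 4 higher, the hnRNPs 1 to 15 lower and 0 to 5 higher, and the other regulators 1 to 3 lower and 0 to 2 higher. The highest value of each came without siE7 replicate 1, where 3 members were DEGs, and without any of the other libraries the number was 2. Leaving out a library lowers the number of samples, and leaving out siE7 replicate 1 also removes the library that stood apart. In the other splicing lists, alternatives tried after seeing the data gave 28 genes higher with library totals, 43 lower with the GC trend removed (42 with the replicate block too), and, without each library, 3 to 38 higher and 16 to 51 lower.

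Members near 0 changed sign in some fits, none of them called with all libraries. With library totals these were MBNL2 (0.0039), SFPQ (0.016), PTBP2 (0.088), RBFOX2 (0.077), SRSF3 (0.016), QKI (0.030), HNRNPA3 (0.0090), SRSF4 (0.14), TRA2B (0.095), HNRNPA0 (0.058) and HNRNPC (0.16). HNRNPR was at -0.059 with DESeq2, -0.050 with RLE factors, -0.013 without a filter, -0.018 with the replicate block, -0.019 with the GC trend removed and -0.026 with both. HNRNPA2B1 was at -0.044 with DESeq2, -0.035 with RLE factors, -0.096 with the GC trend removed and -0.10 with the block too. With the GC trend removed SRSF5 was at -0.031 (-0.033 with the block) and KHDRBS1 at -0.0023 (-0.0025 with the block), and KHDRBS1 was at -0.0047 with DESeq2. HNRNPC was at 0.019 with at least 10 counts in every library and at 0.020 with upper-quartile factors. Over the fits that leave out a library, HNRNPA2B1 ran from -0.060 to 0.058, HNRNPC ran from -0.050 to 0.0081, HNRNPM ran from -0.058 to 0.12, HNRNPR ran from -0.083 to 0.097, PTBP2 ran from -0.36 to 0.18, SRSF4 ran from -0.14 to 0.025, SRSF5 ran from -0.018 to 0.12, SYNCRIP ran from -0.056 to 0.29 and TRA2B ran from -0.18 to 0.0094. Depth limits the genes with few counts, such as PTBP2 and SRSF12.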

Other observations

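The genes named here were chosen after their values had been seen. Regulators known from neurons or muscle had next to no counts. NOVA1, NOVA2, RBFOX1, RBFOX3, CELF2 and MBNL3 were each at or under 0.243 CPM in every library and could not be tested. The epithelial regulators ESRP1 and ESRP2 were both expressed, and ESRP2 fell (log2 fold change -0.51, adjusted p = 0.0089 by edgeR) where ESRP1 was at -0.04 (adjusted p = 0.83).

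In 3 members, SYNCRIP, SRSF1 and PCBP2, another gene model on the same strand held 24.5, 11.7 and 8.87 times as many counts as the member itself. The sum of both rows for SYNCRIP was 355 ± 1.50 CPM with siNC (SD, n = 3) and 324 ± 63.3 CPM with siE7, and for PCBP2 207 ± 10.1 and 169 ± 20.2. NRAV, a long noncoding RNA that shares 3.13% of the exon bases of SRSF9, rose by 0.84 (adjusted p = 0.00026), or by 0.77 without siE7 replicate 1, where SRSF9 fell. TGFB1, which overlaps HNRNPUL1 on the other strand, was at -0.14 (adjusted p = 0.46), and fell by 0.38 without siE7 replicate 1 (adjusted p = 8.4e-07). Rows of 51 processed copies were found for 14 members. Outside HNRNPA1 they held at most 1.07% of the counts of gene and copies.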
